A study of Homo sapiens with 36 samples.

Results

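NAD is made from several precursors, and the 10 genes described here were chosen by name to cover these routes: NAMPT and NMRK1 for salvage of nicotinamide and nicotinamide riboside, NAPRT and NADSYN1 for the Preiss-Handler route from nicotinic acid, QPRT for the de novo route from tryptophan, NMNAT1, NMNAT2 and NMNAT3 for the adenylyltransferase step that the routes share, NADK for conversion of NAD to NADP, and NNMT, which methylates nicotinamide and takes it out of salvage. They are 10 of the 57820 genes in the count table. NAD carries electrons in central metabolism, including the step of serine synthesis catalysed by PHGDH, and it is consumed by PARPs and sirtuins, so that cells have to resynthesize it from nicotinamide. RNA-seq was performed in 36 libraries of A2780, an established line of human ovarian cancer cells. Cell populations of 3 kinds were compared, the platinum-sensitive parental cells (wt), resistant cells derived from them by chronic cisplatin exposure (cis), and cells that resumed growth after serine and glycine had been withheld from the resistant cells (cis SSP). Culture was in complete medium or in medium lacking serine and glycine (-SG), without or with carboplatin (carbo), which gives 12 conditions of 3 libraries.

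The labels give the carboplatin dose as 6 M, while other assays of the study are in the micromolar range. The study's legends call its 3 libraries per condition technical replicates and the labels name no separate cultures, so that the p-values measure the spread between libraries. Nothing in the labels says whether cis or cis SSP cells are single clones. Total counts on genes were 13074937 to 20441582 per library. Expression is given as CPM, counts scaled to library size after TMM over the 36 libraries, and log2 fold changes are of the first-named over the second group. Of 8 epithelial and ovarian markers, KRT7, CDH1, MUC16 and PAX8 were at no more than 0.612 CPM in any library, WT1 reached 1.42 CPM, EPCAM 2.26 CPM and KRT8 6.45 CPM, and KRT18 was at 0.344 to 44.1 CPM. The mesenchymal marker VIM was at 1517 to 4599 CPM and CDH2 at 9.65 to 1403 CPM. Markers of immune and endothelial cells (PTPRC, CD3E, CD14, VWF) reached at most 0.343 CPM. Of the fibroblast genes, COL3A1 was at 582 to 3871 CPM and COL1A1 at 1.66 to 991 CPM, DCN at 0.109 to 26.9 CPM and LUM at 0 to 5.96 CPM. Libraries 25 (cis SSP) and 32 (cis SSP -SG) stood apart. Their median absolute deviation from the mean of the other libraries of their condition, after centring, was 0.450 and 0.454 on the log2 scale. In both libraries the signed deviation correlated with log2 exonic length (Pearson r = -0.54). They differed from each other by 0.142 and from every other cis SSP library by 0.441 to 0.504. Tests named in the text that rest on either of them are given with all libraries and without both. In wt -SG carbo, library 11 deviated by 0.163 (r = -0.49 with length). Without library 11, 7 of 8 tested members were called for carboplatin in wt -SG cells, beside 10744 of all 14657 genes tested. Libraries 23 and 24 (cis -SG carbo) had 17.9% and 14.9% of counts on no feature, against at most 9.31% in any other library.

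Of the 10 genes, 8 had counts that could be tested. NNMT had 0 to 2 counts and NMNAT3, the mitochondrial adenylyltransferase, 0 to 6 counts in a library, and both failed edgeR's filter on low counts in every comparison. The reads of NMNAT3 cannot be told apart from those of overlapping COPB2-DT, whose mean count was 33.3 against 0.806, as the strand setting of the counting is not given. NAPRT has a low count itself (mean 75.2) and overlaps an antisense lncRNA (ENSG00000255050, mean 10.4). The other members had no overlapping gene or pseudogene with a mean above 1.39 counts.

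Between cis and wt cells, the question being how resistant cells differ from sensitive ones, 5 of the 8 tested members were called at an adjusted p under 0.05 in complete medium, where 78.5% of all genes tested were called. Of these, 3 were higher in cis cells (39.4% of all genes) and 2 lower (39.1%). With carboplatin 7 of 8 were called (81.9%), 3 higher (40.3%) and 4 lower (41.6%). Without serine and glycine 8 of 8 were called (81.1%), 6 higher (40.8%) and 2 lower (40.3%). Most genes differed between these cells, so that a count of members says little beside this background. In absolute terms the members had a median log2 fold change of 0.36, 0.81 and 1.01 in these comparisons, against 0.44, 0.57 and 0.58 over all genes tested. Between cis SSP and cis cells 5 of 8 were called in complete medium (29.1% of all genes), 2 higher (15.8%) and 3 lower (13.3%) in cis SSP. Without serine and glycine 6 of 8 were called (44.8%), 1 higher (21.6%) and 5 lower (23.2%). Leaving out libraries 25 and 32, these counts were 7 (65.4%) and 8 (75.5%). Since these libraries are bulk RNA, fewer cells of a type and less RNA per cell cannot be told apart. The wt/cis and cis SSP/cis comparisons share the cis libraries, and each response below shares its untreated libraries with another comparison. The fold changes of all members in all comparisons are in the heat map.

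**Figure D1:**
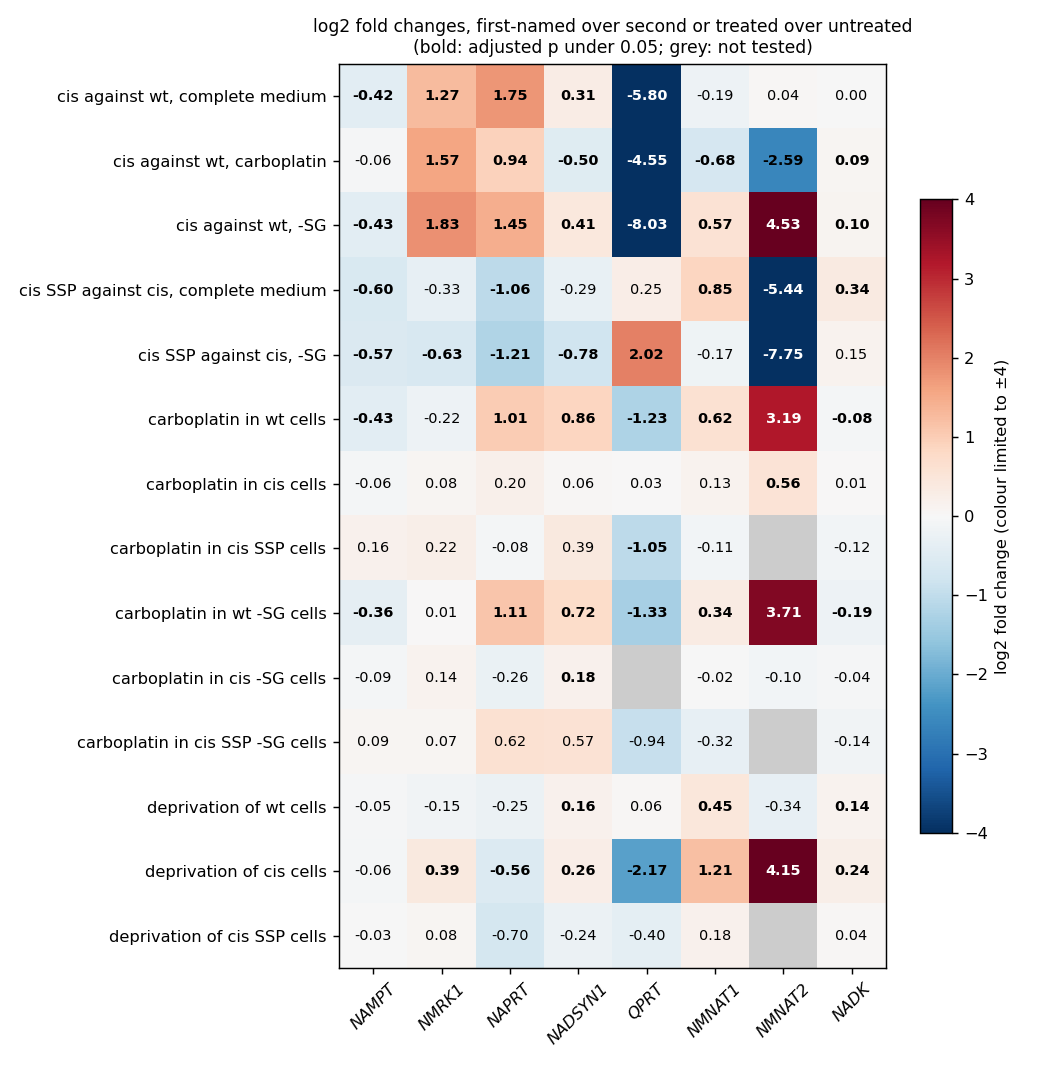
log2 fold changes of the 8 tested members (columns) in 14 comparisons (rows), as first-named over second group or treated over untreated, bold values had an adjusted p under 0.05 (edgeR), and grey cells were not tested. QPRT is lower in cis than in wt cells in complete medium (-5.80), with carboplatin (-4.55) and in -SG medium (-8.03). NMNAT2 ranges from -7.75 to 4.53.

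QPRT, which makes nicotinic acid mononucleotide from quinolinic acid in the de novo route, had the largest wt/cis difference of the members. It lies on chromosome 16 from 29674600 to 29710020 (GRCh37). Its expression was 91.7, 97.1 and 96.0 CPM in the wt libraries and 1.45, 2.00 and 1.69 CPM in the cis libraries. The groups did not overlap, and the ratio was 54.8 (95% interval for counting error, exact, 44.4 to 68.4). The log2 fold change of cis over wt was -5.80 (SE 0.0794, adjusted p = 7.88e-45, edgeR). Without serine and glycine QPRT was at 95.5, 98.3 and 101 CPM in wt and at 0.368, 0.438 and 0.315 CPM, or 7, 8 and 6 counts, in cis cells. The ratio of wt to cis there was 263 (exact 95% interval 172 to 425), and the log2 fold change of cis over wt -8.03 (SE 0.0952, adjusted p = 5.03e-24, edgeR). QPRT overlaps SPN on the same strand, whose mean count was 1.39.

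Carboplatin lowered QPRT in wt cells, to 38.3, 41.6 and 40.2 CPM, with a log2 fold change of -1.23 (SE 0.0391, adjusted p = 2.25e-141, edgeR). It fell likewise in wt -SG cells, to 39.5, 38.7 and 36.2 CPM, with a log2 fold change of -1.33 (SE 0.0582, adjusted p = 6.37e-08, edgeR). In both media the treated libraries lay below every untreated one. In cis cells, where little QPRT was left, carboplatin gave a log2 fold change of 0.03 (SE 0.220), and the test of the difference between the responses of cis and wt cells gave 1.26 (SE 0.218, adjusted p = 1.24e-06, edgeR). Deprivation lowered QPRT in cis cells, with a log2 fold change of -2.17 (SE 0.309, adjusted p = 2.71e-08, edgeR), against 0.06 in wt cells (SE 0.0353, adjusted p = 0.171, edgeR). The difference of these responses was -2.21 (SE 0.268, adjusted p = 6.09e-09, edgeR). QPRT stayed low in cis SSP cells, with condition means of 0.801 to 2.04 CPM. It was higher than in cis cells in -SG medium, by a log2 fold change of 2.02 (SE 0.321, adjusted p = 0.00376, edgeR), or 1.75 without libraries 25 and 32.

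The enzymes that feed QPRT were listed at or near 0 with the exceptions of TDO2 and AFMID. IDO1, IDO2, KMO, KYNU, HAAO and ACMSD, the other enzymes of tryptophan breakdown and of the branch away from it, reached at most 0.782 CPM in any of the 36 libraries. TDO2, the tryptophan dioxygenase that opens the route, had 2, 0 and 0 counts in wt libraries and 815, 1002 and 1041 counts in cis libraries (53.8, 54.2 and 58.7 CPM). The ratio was 1534 (exact 95% interval 424 to 12675), with no overlap between the groups. Without serine and glycine TDO2 had no count in wt libraries and was at 30.1, 31.5 and 33.7 CPM in cis libraries, at least 165-fold higher (floor of 3 counts per library). QPRT and TDO2, both of this route, thus went in opposite directions between wt and cis cells. In deprived cis cells TDO2 was lower by a log2 fold change of -0.78 (SE 0.0521, adjusted p = 3.80e-18, edgeR). AFMID, a formamidase of the same route, was at 9.66 to 39.3 CPM over the libraries.

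Sequence around the starts of these genes was read from RefSeq (GRCh38.p14 coordinates), which had entries for 7 of the 10 members, and placed in GRCh37 by exact match. The sequences shown are the 250 bases before a start of QPRT, of NMNAT2 and of NAMPT, the first 2 because they differed most between conditions and NAMPT for contrast. They were chosen after the values were seen. Capitals mark matches to the GC box GGGCGG on either strand. Which start the cells use cannot be read from counts per gene. The QPRT sequence is chr16:29690251-29690500 (plus strand), the NMNAT2 sequence chr1:183387516-183387765 (minus strand) and the NAMPT sequence chr7:105925430-105925679 (minus strand), all in GRCh37.
QPRT: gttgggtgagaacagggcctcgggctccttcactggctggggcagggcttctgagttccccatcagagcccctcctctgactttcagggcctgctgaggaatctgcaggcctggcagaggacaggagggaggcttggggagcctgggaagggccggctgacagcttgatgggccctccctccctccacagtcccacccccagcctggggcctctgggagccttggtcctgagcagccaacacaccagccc
NMNAT2: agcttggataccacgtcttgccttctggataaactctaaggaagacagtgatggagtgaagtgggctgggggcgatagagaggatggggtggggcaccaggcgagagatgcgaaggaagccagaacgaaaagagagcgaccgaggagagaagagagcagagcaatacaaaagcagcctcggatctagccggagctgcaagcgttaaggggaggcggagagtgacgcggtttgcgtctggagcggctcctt
NAMPT: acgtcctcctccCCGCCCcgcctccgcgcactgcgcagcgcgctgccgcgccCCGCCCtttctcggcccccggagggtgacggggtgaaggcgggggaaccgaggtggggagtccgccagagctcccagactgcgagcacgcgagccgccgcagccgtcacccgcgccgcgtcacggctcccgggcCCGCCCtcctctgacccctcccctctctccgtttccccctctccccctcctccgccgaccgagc
The QPRT sequence held 2 CpG and the NMNAT2 sequence 15, against 34 in NAMPT and a median of 11 over 35116 promoter windows. Windows of a second listed start, not shown, held 1 CpG for QPRT and 4 for NMNAT2. The QPRT window shown lies within the span of the gene given above. Motifs were searched on both strands. The TATA box TATAAA is in 10.7% of these windows, the box CCAAT in 32.01%, the GC box GGGCGG in 42.6% and the E box CACGTG in 6.34%. The cAMP response element TGACGTCA is in 1.65% and the C/EBP-ATF response element TGATGNAA in 3.14% of them. None of these was found in the QPRT or NMNAT2 sequence, and the GC box was found 3 times in that of NAMPT. A match or its absence describes the letters of the window and no more.

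NMNAT2, the adenylyltransferase of cytosol and Golgi known for its role in axons, was the member with the widest range, from 0.0543 to 68.6 CPM. It lies on chromosome 1 from 183217372 to 183387515. In complete medium wt (3.87, 3.88 and 3.41 CPM) and cis cells (4.03, 3.52 and 4.23 CPM) overlapped. The log2 fold change of cis over wt was 0.04 (SE 0.148, adjusted p = 0.806, edgeR). Carboplatin raised it in wt cells to 35.5, 33.7 and 31.7 CPM, a log2 fold change of 3.19 (SE 0.0863, adjusted p = 7.15e-175, edgeR). In cis cells the same treatment gave 6.09, 5.35 and 5.49 CPM, a log2 fold change of 0.56 (SE 0.136, adjusted p = 0.00348, edgeR), which DESeq2 did not call (adjusted p = 0.0712). The difference of the responses was -2.63 (SE 0.173, adjusted p = 3.21e-20, edgeR).

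Deprivation of serine and glycine gave the opposite pattern. NMNAT2 was at 68.6, 68.1 and 67.8 CPM in cis -SG libraries, a log2 fold change of 4.15 over cis (SE 0.0741, adjusted p = 4.15e-40, edgeR), and at 3.09, 2.999 and 2.57 CPM in wt -SG libraries, a log2 fold change of -0.34 (SE 0.150, adjusted p = 0.0665, edgeR). All 3 deprived cis libraries lay above every other library without carboplatin. The difference of the responses was 4.50 (SE 0.171, adjusted p = 7.51e-23, edgeR). Where the treatments were combined, carboplatin still raised NMNAT2 in wt -SG cells (log2 fold change 3.71, SE 0.120, adjusted p = 1.05e-08, edgeR), and in cis -SG cells the log2 fold change was -0.10 (SE 0.0390, adjusted p = 0.0852, edgeR). The responses of all members are in the plot of log2 fold changes by treatment.

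**Figure D2:**
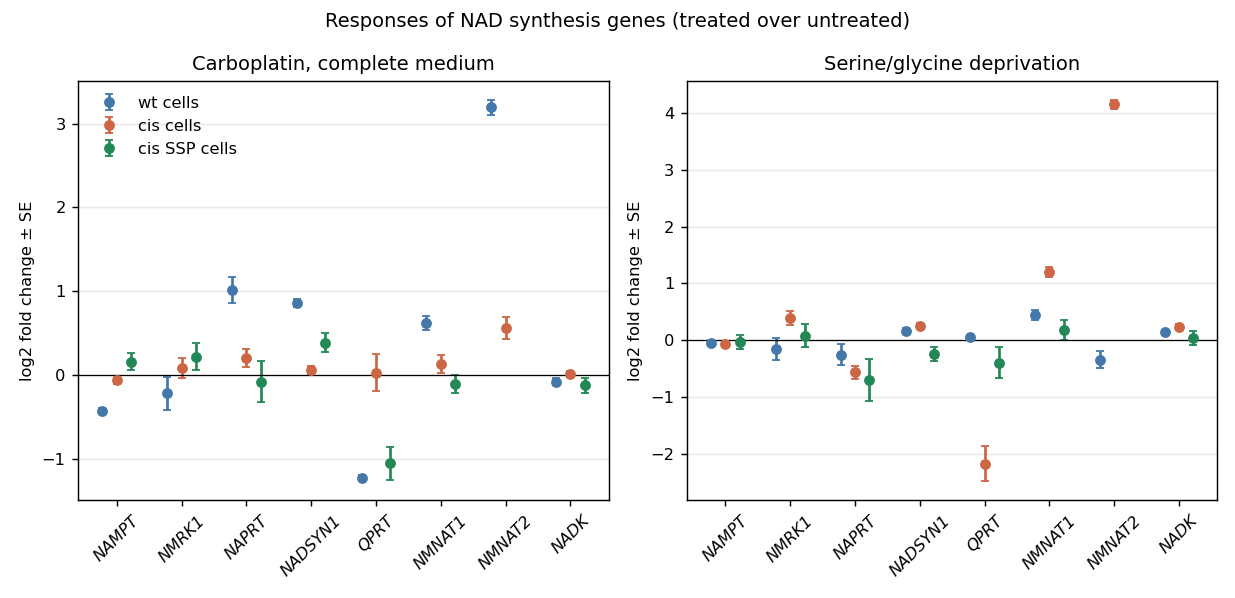
log2 fold change with its standard error of each tested member on carboplatin in complete medium (left) and on serine/glycine deprivation (right), for wt, cis and cis SSP cells. NMNAT2 stands at 3.19 in carboplatin-treated wt cells and at 4.15 in deprived cis cells, and has no value in cis SSP cells, where it was not tested.

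In cis SSP cells NMNAT2 was near 0, with 2, 1 and 1 counts in complete medium and 8, 5 and 3 counts without serine and glycine. The ratio of cis to cis SSP was 48.2 (exact 95% interval 18.5 to 179) in complete medium and 219 (135 to 384) in -SG medium. The fitted log2 fold changes of cis SSP over cis, -5.44 (SE 0.299, adjusted p = 1.11e-04, edgeR) and -7.75 (SE 0.222, adjusted p = 1.69e-05, edgeR), depend on the prior count at such low counts. Without libraries 25 and 32 they were -5.89 and -7.84. With carboplatin NMNAT2 had 13, 10 and 12 counts in cis SSP cells, a ratio of 7.92 (2.83 to 30.7) to the untreated cells. NMNAT2 failed edgeR's filter in the tests within cis SSP cells. DESeq2, run without that filter, gave 2.97 for carboplatin in complete medium (adjusted p = 0.0287), and edgeR without library 25 gave 3.34 (SE 0.677, adjusted p = 2.47e-04). In -SG medium edgeR without library 32 gave 1.15 (SE 0.502, adjusted p = 0.0754). The difference between the deprivation responses of cis SSP and cis cells was -2.30 (SE 0.627) with an adjusted p = 0.0906 by edgeR and 0.0482 by DESeq2, and -1.93 (SE 1.30, adjusted p = 0.232, edgeR) without libraries 25 and 32.

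NMNAT1, the nuclear adenylyltransferase (chromosome 1 from 10003486 to 10045559), varied less. It rose on deprivation in cis cells from 9.77, 7.52 and 8.23 to 19.3, 20.1 and 18.02 CPM, with no overlap and a log2 fold change of 1.21 (SE 0.0878, adjusted p = 8.77e-17, edgeR). In wt cells the rise was 0.45 (SE 0.0836, adjusted p = 1.52e-04, edgeR), and the responses differed by 0.77 (SE 0.126, adjusted p = 2.00e-06, edgeR). Carboplatin raised it in wt cells by 0.62 (SE 0.0859, adjusted p = 3.71e-12, edgeR), with 0.13 in cis cells and a difference of -0.48 (SE 0.140, adjusted p = 0.00262, edgeR). It was higher in cis SSP than in cis cells in complete medium, by 0.85 (SE 0.136, adjusted p = 0.00565, edgeR), or 0.81 without library 25 (adjusted p = 3.08e-08, edgeR). Per length of the canonical transcript, NMNAT1 exceeded NMNAT2 in wt cells at 2.52 ± 0.142 against 0.684 ± 0.0498 CPM per kilobase (SD, n = 3). The order was inverted in wt cells with carboplatin, at 3.82 ± 0.443 against 6.18 ± 0.354 CPM per kilobase, and in cis -SG cells, at 5.12 ± 0.280 against 12.5 ± 0.0719. In cis SSP cells NMNAT1 was at 4.04 ± 0.332 and NMNAT2 at 0.0157 ± 0.00896 CPM per kilobase. A count per kilobase rests on the annotated transcript and not on the isoforms these cells use.

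**Figure D3:**
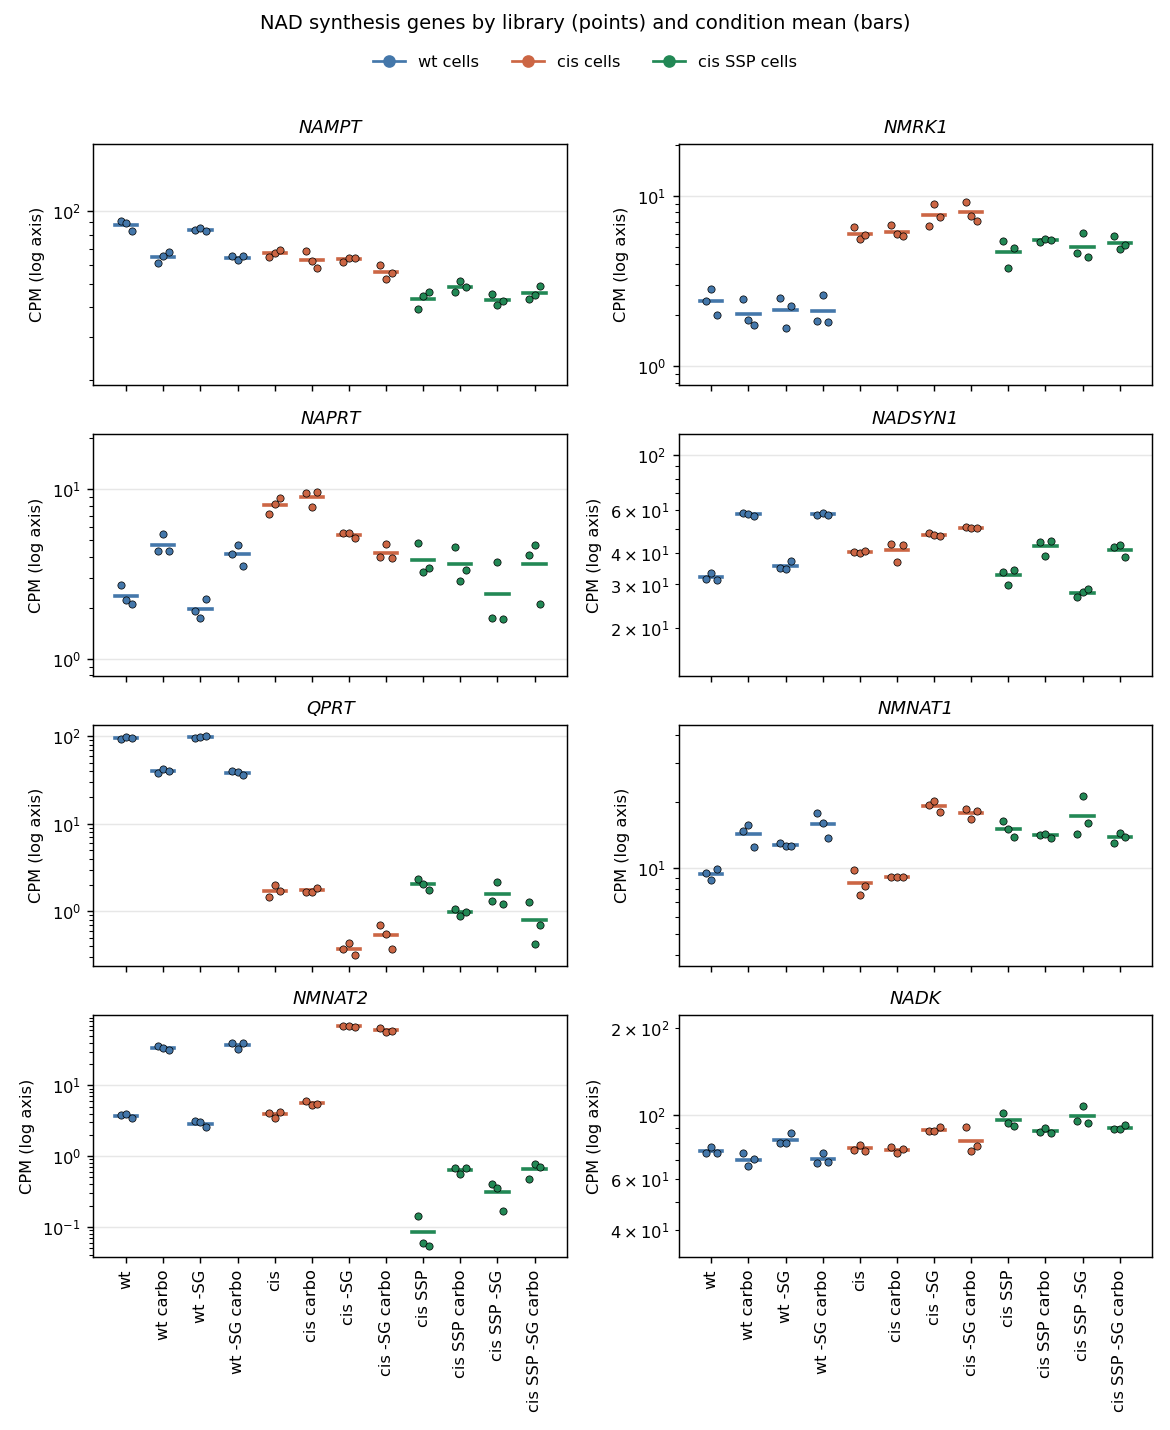
Expression in CPM (log axes) of the 8 tested members in the 12 conditions, with a point for each library and a bar for the mean of 3. QPRT is at 36.2 to 101 CPM in wt libraries and at no more than 2.33 CPM in all others, and NMNAT2 is highest in the cis -SG libraries.

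NAMPT, the rate-limiting enzyme of nicotinamide salvage (chromosome 7 from 105888744 to 105926412), stepped down from wt to cis to cis SSP cells. It was at 91.2, 89.8 and 83.0 CPM in wt, 64.9, 67.3 and 69.3 CPM in cis and 39.5, 44.5 and 46.3 CPM in cis SSP libraries in complete medium, and none of these groups overlapped. The cis SSP/cis log2 fold change was -0.60 (SE 0.105, adjusted p = 0.00747, edgeR) in complete and -0.57 (SE 0.0901, adjusted p = 0.00349, edgeR) in -SG medium. Without libraries 25 and 32 they were -0.52 and -0.53, with adjusted p = 3.37e-11 and 1.64e-13 by edgeR. In -SG medium the wt/cis step was like that in complete medium, with cis over wt at -0.43 (SE 0.0382, adjusted p = 2.16e-09, edgeR). Deprivation changed NAMPT little in any of the populations, with log2 fold changes of -0.05 in wt, -0.06 in cis and -0.03 in cis SSP cells (-0.06 without libraries 25 and 32), none of them called. Carboplatin lowered it in wt cells, with a log2 fold change of -0.43 in complete medium (SE 0.0358, adjusted p = 2.75e-29, edgeR) and of -0.36 in -SG medium (SE 0.0521, adjusted p = 2.03e-04, edgeR). The log2 fold change in cis cells was -0.06, and the difference of the carboplatin responses 0.37 (SE 0.0708, adjusted p = 5.53e-05, edgeR). With carboplatin, wt libraries (61.0, 65.3 and 67.6 CPM) and cis libraries (68.6, 61.9 and 58.4 CPM) overlapped, at a log2 fold change of cis over wt of -0.06 (adjusted p = 0.309, edgeR). Without library 16 of cis carbo it was -0.12 (adjusted p = 0.0181, edgeR).

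NMRK1, the kinase for nicotinamide riboside (chromosome 9 from 77675489 to 77703133), was higher in cis than in wt cells. It was at 2.44, 2.83 and 1.99 CPM in wt and 6.60, 5.57 and 5.86 CPM in cis libraries, with no overlap and a log2 fold change of 1.27 (SE 0.151, adjusted p = 3.17e-10, edgeR). With carboplatin and without serine and glycine the log2 fold changes were 1.57 and 1.83. In 6 comparisons of carboplatin-treated with untreated cells NMRK1 was not called, and the log2 fold changes ran from -0.22 to 0.22. Deprivation raised it in cis cells by 0.39 (SE 0.118, adjusted p = 0.00276, edgeR), a call lost with DESeq2 (adjusted p = 0.0702) and without library 20 (0.27, adjusted p = 0.0606 by edgeR). Its difference from the wt response was 0.56 (SE 0.233, adjusted p = 0.0399, edgeR), and leaving out 7 of the 12 libraries (1, 2, 8, 9, 14, 15 or 20) moved the adjusted p to between 0.0533 and 0.174. In cis SSP cells NMRK1 was lower than in cis cells in -SG medium (log2 fold change -0.63, SE 0.181, adjusted p = 0.0317, edgeR), which was not called without library 19, 20, 21, 31 or 33 (0.0664 to 0.122) and was -0.77 without libraries 25 and 32 (adjusted p = 2.70e-06, edgeR). In complete medium it was -0.33 (adjusted p = 0.189, edgeR), or -0.41 (adjusted p = 0.0184, edgeR) without library 25.

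NAPRT, the entry enzyme of the Preiss-Handler route, lies on chromosome 8. Its mean count over the 36 libraries (75.2) and that of NMRK1 (81.7) were the lowest of the tested members. It was at 2.71, 2.22 and 2.10 CPM in wt and at 7.13, 8.17 and 8.85 CPM in cis libraries. The log2 fold change of cis over wt was 1.75 (SE 0.142, adjusted p = 3.48e-15, edgeR). With carboplatin it was 0.94 and in -SG medium 1.45. In carboplatin-treated wt cells NAPRT was at 4.33, 5.43 and 4.31 CPM, above every untreated wt library and below every cis library in complete medium. The carboplatin response of cis cells differed from that of wt cells by -0.81 (SE 0.194, adjusted p = 2.71e-04, edgeR), with an adjusted p = 0.0544 in a fit over all 36 libraries. Deprivation lowered NAPRT in cis cells, to 5.51, 5.53 and 5.15 CPM (log2 fold change -0.56, SE 0.114, adjusted p = 2.83e-05, edgeR), and the log2 fold change in wt cells was -0.25 (adjusted p = 0.296, edgeR), with no difference called between the responses (-0.29, adjusted p = 0.278, edgeR). In complete medium the log2 fold change of cis SSP over cis cells was -1.06 (SE 0.181, adjusted p = 0.00730, edgeR). It was called in all 6 fits with a library left out, library 25 among them (-1.24 to -0.97). In -SG medium cis SSP cells were lower than cis cells by a log2 fold change of -1.21 (SE 0.305, adjusted p = 0.0202, edgeR). In -SG medium the adjusted p was 0.0554 to 0.0816 without library 19, 20, 21, 31 or 33, and 3.32e-11 without libraries 25 and 32 (-1.64). Within the cis SSP -SG libraries, NAPRT was at 1.73 and 1.73 CPM in libraries 31 and 33 and at 3.72 CPM in library 32.

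NADSYN1, the glutamine-dependent NAD synthetase that ends the Preiss-Handler and de novo routes (chromosome 11 from 71164155 to 71235153), rose with carboplatin in wt cells, from 31.6, 33.3 and 31.2 to 58.0, 57.9 and 56.6 CPM. The log2 fold change was 0.86 (SE 0.0460, adjusted p = 1.80e-64, edgeR), and 0.72 (SE 0.0569, adjusted p = 2.95e-06, edgeR) in wt -SG cells. In cis cells it was 0.06 (SE 0.0551, adjusted p = 0.518, edgeR), and the difference of the responses -0.80 (SE 0.0699, adjusted p = 3.16e-15, edgeR). NADSYN1 was higher in cis than in wt cells in complete medium (0.31, SE 0.0508, adjusted p = 5.84e-07, edgeR) and lower with carboplatin (-0.50, SE 0.0476, adjusted p = 8.13e-14, edgeR). Deprivation gave 0.26 in cis cells (SE 0.0480, adjusted p = 5.56e-06, edgeR) and -0.24 in cis SSP cells (SE 0.116), a difference of -0.49 (SE 0.113, adjusted p = 0.0133, edgeR). The cis SSP response without libraries 25 and 32 was -0.23 and the difference -0.49 (adjusted p = 3.31e-06, edgeR). In cis SSP cells carboplatin gave 0.39 (adjusted p = 0.151, edgeR), or 0.41 (adjusted p = 6.46e-05, edgeR) without library 25, and in -SG medium 0.57 (adjusted p = 0.0627, edgeR), or 0.60 (adjusted p = 5.82e-07, edgeR) without library 32. Untreated cis SSP libraries were at 26.7 to 34.4 CPM and treated ones at 38.8 to 45.05 CPM, with no overlap.

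**Figure D4:**
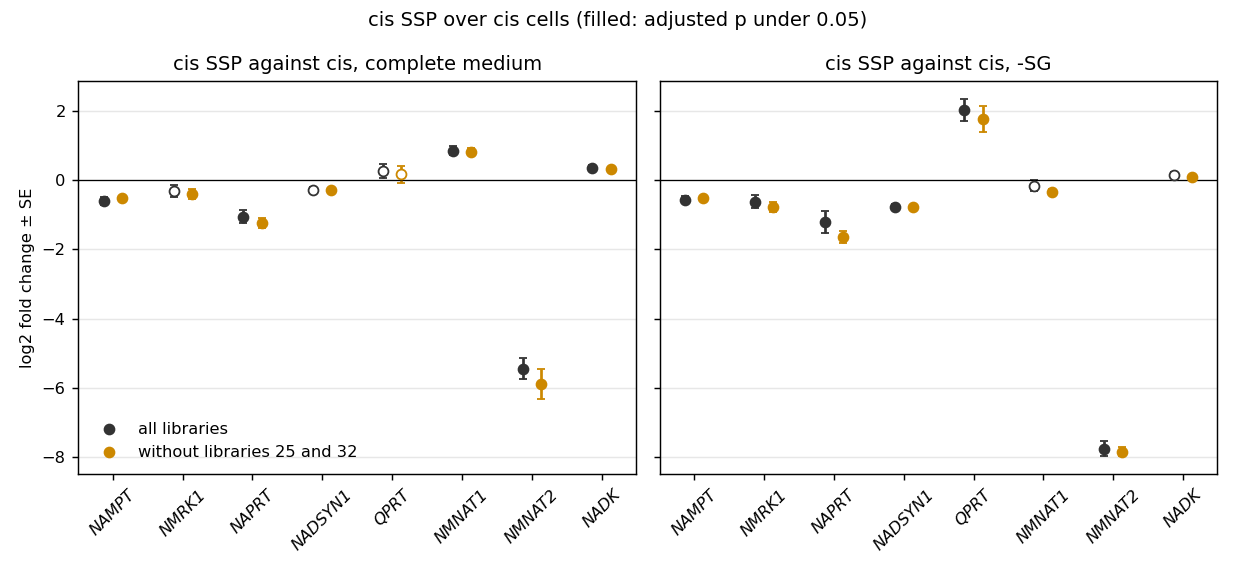
log2 fold change with its standard error of cis SSP over cis cells in complete medium (left) and -SG medium (right), with all libraries (black) and without libraries 25 and 32 (orange), where filled points had an adjusted p under 0.05 by edgeR. The fitted values of NAMPT move from -0.60 to -0.52 and from -0.57 to -0.53, and those of NMNAT2 are -5.44 and -5.89 in complete and -7.75 and -7.84 in -SG medium.

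NADK, the cytosolic NAD kinase (chromosome 1 from 1682671 to 1711896), varied least, between 66.5 and 108 CPM over the 36 libraries. Its log2 fold change of cis over wt in complete medium was -0.0014 (adjusted p = 0.974, edgeR). Deprivation raised it by 0.24 in cis (SE 0.0387, adjusted p = 3.72e-07, edgeR) and 0.14 in wt cells (SE 0.0394, adjusted p = 0.00508, edgeR), and the difference was 0.11 (adjusted p = 0.0708, edgeR). NADK was higher in cis SSP than in cis cells in complete medium by 0.34 (SE 0.0920, adjusted p = 0.0336, edgeR). Without libraries 25 and 32 this was 0.32 (adjusted p = 7.55e-08, edgeR), while leaving out library 13, 14, 15, 26 or 27 moved the adjusted p to between 0.0704 and 0.146. Its calls on carboplatin in wt cells (-0.08) and in wt -SG cells (-0.19), and between cis and wt cells with carboplatin (0.09) and in -SG medium (0.10), were each lost without 2 or 3 of the libraries in turn (2, 5 or 6; 9 or 12; 5, 6 or 16; 7, 8 or 21), with adjusted p = 0.0555 to 0.314 by edgeR.

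With carboplatin in complete medium, 7 of 8 tested members were called in wt cells (77.8% of all genes), 4 higher (38.9%) and 3 lower (39.0%). In cis cells 1 of 8 was called (20.1%), which was higher (9.27%, against 10.8% lower). In cis SSP cells 1 of 7 was called (2.72%), which was lower (0.749%, against 1.97% higher). The call in cis SSP cells was that of QPRT (-1.05, SE 0.195, adjusted p = 0.0484, edgeR), which was lost without library 26, 27, 28, 29 or 30 (0.110 to 0.248) and was -0.95 without library 25 (adjusted p = 0.00449, edgeR). Without library 25, 3 members were called in cis SSP cells (NADSYN1, QPRT and NMNAT2, 41.2% of all genes). In -SG medium 7 of 8 were called in wt cells (68.9%), 4 higher (34.3%) and 3 lower (34.6%), 1 of 7 in cis cells (22.5%), which was higher (10.9%, against 11.6% lower), and 0 of 7 in cis SSP cells by edgeR (1.47%, with 1.17% higher and 0.295% lower). The cis call was NADSYN1 (0.18, SE 0.0474, adjusted p = 0.0148, edgeR), lost without library 20, 21 or 24 (0.0606 to 0.0742) and with DESeq2 (0.123). In the cis SSP -SG cells 1 member had an unadjusted p under 0.05 with edgeR and 1 was called by DESeq2, and without library 32 the count was 2 (NAPRT and NADSYN1, 41.1% of all genes).

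Deprivation was called for 3 of 8 members in wt cells (NADSYN1, NMNAT1 and NADK, 49.2% of all genes), all higher (24.1%, against 25.1% lower). It was called for 7 of 8 in cis cells (75.0%), 5 higher (37.6%) and 2 lower (37.4%), and for 0 of 7 in cis SSP cells (0.0218%), where edgeR and DESeq2 gave 0 members at an unadjusted p under 0.05. Without libraries 25 and 32, 2 were called in cis SSP cells (35.9%), NAPRT at -0.95 (adjusted p = 0.00136, edgeR) and NADSYN1 at -0.23 (adjusted p = 0.0152, edgeR). The call of NADSYN1 in wt cells (0.16, SE 0.0522, adjusted p = 0.0149, edgeR) was lost without library 1, 3 or 9 and with DESeq2 (adjusted p = 0.0992). The tests of the difference in response called 6 of 8 members for carboplatin between cis and wt (57.6% of all genes), 2 higher (30.3%) and 4 lower (27.2%). For deprivation between cis and wt 4 of 8 were called (54.0%), 3 higher (27.1%) and 1 lower (26.9%). For deprivation between cis SSP and cis cells 3 of 8 were called (17.1%, or 4 of 8 against 55.4% without libraries 25 and 32), 1 higher (6.86%) and 2 lower (10.3%).

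Of 33 further genes of NAD metabolism (other salvage, transport and de novo enzymes, NADP and repair enzymes, and NAD consumers), 12 of 18 tested were called between cis and wt cells in complete medium (78.5% of all genes), 9 higher (39.4%) and 3 lower (39.1%) in cis. Besides TDO2 they included the deacylase SIRT1 at 2.27 (SE 0.0283, adjusted p = 1.78e-46, edgeR), SIRT7 at 1.04, and NNT, the mitochondrial transhydrogenase, at 0.96. NUDT12, a hydrolase of NAD(H), was lower at -1.57, SIRT2 at -0.62, and NAXD, a dehydratase that repairs NAD(P)H hydrates, at -0.33. With carboplatin in wt cells 14 of 18 were called (77.8% of all genes), 8 higher (38.9%) and 6 lower (39.0%), led by PNP, a phosphorylase that also cleaves nicotinamide riboside (1.23, SE 0.0315, adjusted p = 3.10e-186, edgeR), SIRT2 (1.06), SARM1 (0.94) and SIRT6 (0.77), with NNT (-1.02), SIRT3 (-0.72), AFMID (-0.67) and NUDT12 (-0.57) lower. In cis cells with carboplatin 5 of 18 were called (20.1% of all genes), 3 higher (9.27%) and 2 lower (10.8%), and the largest was NNT at -0.33. On deprivation of cis cells 16 of 19 were called (75.0% of all genes), 7 higher (37.6%), among them AFMID (0.79) and the mitochondrial kinase NADK2 (0.71), and 9 lower (37.4%), among them NAXE (-0.69) and NNT (-0.48). Between cis SSP and cis cells in complete medium 8 of 18 were called (29.1% of all genes), 4 higher (15.8%) and 4 lower (13.3%), and without library 25 it was 14 of 18 (65.4%), 6 higher and 8 lower. SIRT2 was at 1.19 (SE 0.155, adjusted p = 0.00268, edgeR), or 1.05 without library 25, and TDO2 at -0.85 (SE 0.112, adjusted p = 0.00264, edgeR), or -0.92.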

How the data were processed

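RNA-seq counts of 36 libraries were analysed. The deposited values are raw counts per gene, which the authors made with HTSeq and GENCODE v19 after alignment by STAR (GRCh37.p13). The strand setting and the treatment of reads with several alignments are not given in the sources used here. The 3 rows that name no gene (no feature: 4.21% to 17.9% of a library) were left out. Libraries were grouped by the labels, in which libraries of a condition carry no replicate number. The mean chi-square per gene between libraries of a condition was at least 1.20, so none were merged.

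Each comparison was fitted on its own libraries with edgeR 4.0.16 in R 4.3.3 (TMM, filterByExpr, robust quasi-likelihood test), with Benjamini-Hochberg adjustment over all genes tested, and called at an adjusted p under 0.05. The SE is the absolute log2 fold change over the square root of F. Responses were compared by an interaction term. Intervals cover counting error only, and reads carry no molecular identifiers. Levels per kilobase used the canonical transcript of GENCODE v44 mapped to GRCh37. Alternatives were DESeq2 1.42.0, its size factors, total counts, no filter, a fit over all 36 libraries, each library left out, and without libraries 25 and 32 or 23 and 24. The test was run on simulated counts with a common dispersion for all genes of a comparison. A library set apart like 25 or 32 was not simulated. Tables and plots were made with Python 3.11.15, pandas 2.3.3 and matplotlib 3.10.9.

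The members and lists, and libraries 25, 32, 23 and 24, were chosen with earlier results of these data known. All members are named, and of the other genes at most 4 called ones per direction with a mean of at least 50 counts. Likeness was the Pearson correlation of condition means of log2 CPM (prior count 2) for NAMPT, NAPRT, NNMT and QPRT, with NMNAT2 added after its values were seen.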

Additional observations from a re-analysis of the deposited data

Results flagged for a closer look

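For 13 values the responses of 2 cell populations differed by an interaction term in edgeR. For carboplatin between cis and wt cells these were 6 of 8 tested members (57.6% of all genes). For deprivation they were 4 of 8 between cis and wt (54.0%) and 3 of 8 between cis SSP and cis cells (17.1%). The log2 carboplatin response of cis minus that of wt cells was 0.37 for NAMPT, -0.81 for NAPRT, -0.80 for NADSYN1, 1.26 for QPRT, -0.48 for NMNAT1 and -2.63 for NMNAT2. For deprivation, cis minus wt was 0.56 for NMRK1, -2.21 for QPRT, 0.77 for NMNAT1 and 4.50 for NMNAT2. The NMRK1 difference was called in 5 of 12 fits with a library left out. The NAPRT difference was not called in the fit over all 36 libraries. For deprivation, cis SSP minus cis was -0.49 for NADSYN1, 1.77 for QPRT and -1.01 for NMNAT1, and -0.49, 1.60 and -1.15 without libraries 25 and 32. These comparisons share libraries. Conditions of 3 libraries had no formal test for outlying samples, and libraries 25 and 32 were set apart by their distances from other libraries.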

How the results depend on the processing

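The counts of members called that moved by over 1.5 times were these, and under the other settings without a dropped library the counts stayed within 1 of the reported count, or within 2 without libraries 25 and 32. With carboplatin, DESeq2 gave 0 in cis cells (1 in edgeR), 0 in cis -SG (1) and 1 in cis SSP -SG cells (0). It called 1349 of 11616, 2176 of 16860 and 576 of 14776 genes there. Without libraries 25 and 32, 3 were called in cis SSP cells (1) and 2 in cis SSP -SG cells (0), where 41.2% and 41.1% of all genes were called. In a fit over all 36 libraries 3 and 3 were called, beside 3090 and 2860 of 16677 genes. In cis -SG cells 0 were called without libraries 23 and 24 (2173 of 14974 genes) and 0 in the fit over all libraries (1141 of 16677 genes). On deprivation the fit over all libraries gave 1 in wt (3) and 1 in cis SSP cells (0), beside 2821 and 1530 of 16677 genes. Without libraries 25 and 32, 2 were called in cis SSP cells (35.9% of all genes). When a single library was dropped, the members called for carboplatin ranged from 0 to 3 in cis SSP cells, 0 to 2 in cis -SG cells and 0 to 2 in cis SSP -SG cells, from 4 to 7 between cis SSP and cis cells in complete medium and from 4 to 8 in -SG medium, and within 1 of the reported count elsewhere. In the same order, all genes called ranged from 9 to 5835, 1666 to 5224, 0 to 5679, 1995 to 9262 and 4011 to 11125.

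The log2 fold changes that changed sign were uncalled as reported, and NAMPT between cis and wt with carboplatin was called without library 16 (-0.12). NADK between cis and wt cells gave 0.0199 with no filter and 0.0165 in the fit over all libraries (-0.0232 to 0.0187 with a library left out), -0.0028 for carboplatin in cis cells with no filter (-0.0079 to 0.0367), 0.0451 for carboplatin in cis -SG cells without libraries 23 and 24, and -0.0281 for deprivation of cis SSP cells on total counts (-0.0177 to 0.0786). NAPRT with carboplatin in cis SSP cells was 0.1167 without libraries 25 and 32 (-0.2913 to 0.1167). NMRK1 with carboplatin in wt -SG cells was -0.0405 on total counts and -0.0156 with no filter (-0.1942 to 0.1408), and NMNAT1 in cis -SG cells 0.0136 on total counts (-0.0582 to 0.0089). The NAMPT difference in deprivation response between cis and wt was -0.0161 with DESeq2, -0.0022 with its size factors, -0.0165 with no filter and -0.0663 in the fit over all libraries (-0.0398 to 0.0289), and between cis SSP and cis -0.0651 on total counts (-0.0055 to 0.0876), where total counts shifted the median of all genes by -0.11. Leaving out a library also turned NAMPT between cis and wt with carboplatin (-0.1203 to 0.0107) and on deprivation of cis SSP cells (-0.0988 to 0.0202), the NAPRT difference in deprivation response of cis SSP and cis (-0.5857 to 0.0618), NMNAT2 between cis and wt (-0.0270 to 0.1274), NMRK1 with carboplatin in cis SSP -SG cells (-0.0234 to 0.2453) and on deprivation of cis SSP cells (-0.0602 to 0.1872), and QPRT with carboplatin in cis cells (-0.0663 to 0.1615). The cause was not tested.

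Genes called between cis SSP and cis cells were 3990 in complete medium (9262 without libraries 25 and 32, 7979 in the fit over all libraries) and 6421 in -SG medium (11125 and 9814). For carboplatin they were 2702 in cis (DESeq2 1349, all libraries 401), 3253 in cis -SG (all libraries 1141), 377 in cis SSP (DESeq2 722, without libraries 25 and 32 5835, all libraries 3090) and 199 in cis SSP -SG cells (576, 5679 and 2860). Deprivation gave 7021 in wt (all libraries 2821) and 3 in cis SSP cells (DESeq2 105, total counts 1, no filter 5, without libraries 25 and 32 4996, all libraries 1530). The differences in response gave 8807, 8321 and 2533 (all libraries 5240, 4880 and 5027, the last 8341 without libraries 25 and 32). With a library dropped, genes called fell to 1995 to 2064 between cis SSP and cis without library 13, 14 or 15 (4011 to 4146 in -SG medium without 19, 20 or 21). For carboplatin they fell to 1755 in cis cells without 18, to 1666 to 1940 in cis -SG cells without 20, 21 or 24 (5224 without 22), to 9 to 65 in cis SSP cells without 26, 27, 28, 29 or 30, and to 0 to 4 in cis SSP -SG cells without 31, 33, 34, 35 or 36. No paired analysis was possible because the labels give no replicate number within a condition. Low counts limited the tests of NNMT and NMNAT3, and of NMNAT2 in cis SSP cells, with 8 counts or fewer in a library without carboplatin. Whether depth was the cause was not tested.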

Other observations

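The genes whose condition means followed a member most closely over the 12 conditions, by Pearson correlation among 11616 genes, were DOCK9 (0.979), SLC2A13 (0.973) and RASSF8 (0.972) for NAMPT, CBARP (0.971), CHST6 (0.953) and RASL11B (0.953) for NAPRT, TMEM126B (0.993), MTF2 (0.986) and HMGB1P6 (0.985) for QPRT, and USP3 (0.991), SLC16A9 (0.972) and FBXO42 (0.966) for NMNAT2. Among the members, the correlation was -0.96 between QPRT and NMRK1 and 0.78 between NADSYN1 and NMNAT2. The 12 points share the cell populations and libraries, and NNMT had too few counts.

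PNP, which can cleave nicotinamide riboside, had log2 fold changes above 0 with carboplatin in each of the populations and media. The log2 fold change was 1.23 in wt and 2.04 in wt -SG cells, 0.14 in cis and 0.17 in cis -SG cells, and 0.64 in cis SSP and 0.74 in cis SSP -SG cells, with adjusted p = 0.0394 and 0.0297 by edgeR in the last 2. The calls in cis SSP cells were lost without library 26, 27, 28, 29 or 30 (adjusted p = 0.149 to 0.222) and in cis SSP -SG cells without library 31, 33, 34, 35 or 36 (0.150 to 0.230). The values were, without libraries 25 and 32, 0.74 (adjusted p = 3.89e-15, edgeR) and 0.83 (adjusted p = 4.00e-12, edgeR). The call in cis -SG cells was lost without library 19, 20 or 24 (0.0562 to 0.1004). Leaving out a library and libraries 25 and 32 was added here after the data were seen. In complete medium the carboplatin response of PNP in cis cells minus that in wt cells was -1.08 (SE 0.0463, adjusted p = 9.28e-29, edgeR). Without serine and glycine and with carboplatin, wt cells had 15 of 18 tested genes of NAD metabolism called (68.9% of all genes), 7 higher (34.3%) and 8 lower (34.6%). PNP was chosen for this remark after its values were seen.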
